A study of Mus musculus with 6 samples.

Results

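The 10 genes Cth, Cbs, Asns, Phgdh, Psat1, Psph, Shmt1, Shmt2, Mthfd2 and Chac1 encode enzymes of cysteine, serine, glycine, asparagine, glutathione and folate metabolism. They were taken by symbol from the platform's annotation, and all 10 were measured among 18193 named genes. The probe set that stands for each gene was selected on its mean intensity, the brightest over the 6 arrays being kept, and the gene's other probe sets (23 in all for the 10 genes) are given beside it. The samples were bone marrow cells sorted for green fluorescent protein (GFP; sorted, n = 3) and unsorted whole marrow of the same pools (presort, n = 3). Both groups came from femurs of male and female mice aged 3 to 6 months, hemizygous for a transgene in which renin drives GFP, and 4 to 5 mice were pooled for each replicate. The sort also removed erythrocytes and debris by scatter and kept single cells, steps that the presort marrow did not pass through, and its GFP gate was set so that few transgene-negative cells would enter. GFP reports the activity of the transgene, so a sorted cell is defined by that reporter and not by a cell surface marker. Each sample was hybridised to 1 Affymetrix 3' expression array, so precision is limited by having 3 arrays a group. The separate pools make the replicates biological, each pool giving 1 sorted and 1 presort sample.

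In transsulfuration, cystathionine beta-synthase joins homocysteine with serine, and cystathionine gamma-lyase splits the product into cysteine, the building block that limits glutathione synthesis. Serine itself is made from a glycolytic intermediate by phosphoglycerate dehydrogenase, phosphoserine aminotransferase and phosphoserine phosphatase, and the serine hydroxymethyltransferases convert it to glycine while they load a carbon unit on folate for nucleotide synthesis. Asparagine synthetase and several of these enzymes are known targets of ATF4, a transcription factor whose translation increases when amino acids run short or the endoplasmic reticulum is stressed.

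Expression of B lineage genes was higher, and that of erythroid, neutrophil, macrophage and cell division genes lower, in sorted samples than in presort marrow. Of all genes tested, 2629 were higher in sorted samples (14.5%) and 3296 lower (18.1%), by limma with a Benjamini-Hochberg adjusted p under 0.05. The median difference over all genes was -0.0021 on the log2 scale. With each array centred on its median this became 0.23, and 66.7% of called genes were then higher in sorted samples, against 44.4% as deposited. Differences nearer to 0 than this shift therefore have no settled sign. The 3' probe set of the beta-actin control exceeded its 5' probe set (its 3' excess) by 3.17, 1.54 and 1.43 (log2) in sorted replicates 1, 2 and 3, and by 1.11, 0.95 and 0.81 in presort replicates 1, 2 and 3 (two-sided exact permutation p = 0.1, the smallest that 3 against 3 arrays allow). Sorted replicate 1 stood furthest apart in this sign of RNA quality. The Gapdh control gave 3.84, 2.13 and 2.44 in sorted replicates 1, 2 and 3, and 1.99, 1.61 and 1.75 in presort replicates 1, 2 and 3. With both controls every sorted array exceeded every presort array, so the 3' excess separated the groups completely.

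Among the 10 genes, Cth was far higher in sorted samples, and Asns and Chac1 were clearly lower. Mthfd2 and Shmt2 fell by less, and Cbs, Phgdh, Psat1, Psph and Shmt1 did not pass the test. The counts were thus 1 higher and 4 lower of 10, beside 14.5% higher and 18.1% lower among all genes, while without sorted replicate 1 they were 1 and 6, and without pool 2 they were 1 and 2. Median centring of the arrays gave 1 and 3. The median difference of the 10 genes was -0.36 (log2). All sorted values lay above all presort values for 1 of the 10 genes, beside 20.9% of all genes, and below them for 5, beside 23.6%. The genes were put together with earlier results of these arrays known, in which Cth had stood out, so these counts describe the genes. The 1 higher gene in them was Cth, whose value is given with no test, so that 1 reflects the choice of genes. Of the 23 probe sets 11 were called, 1 higher (that of Cth) and 10 lower, beside 28.8% of all probe sets. Throughout, a higher or lower value in bulk RNA cannot tell more or fewer expressing cells from more or less RNA in each cell.

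**Figure D1:**
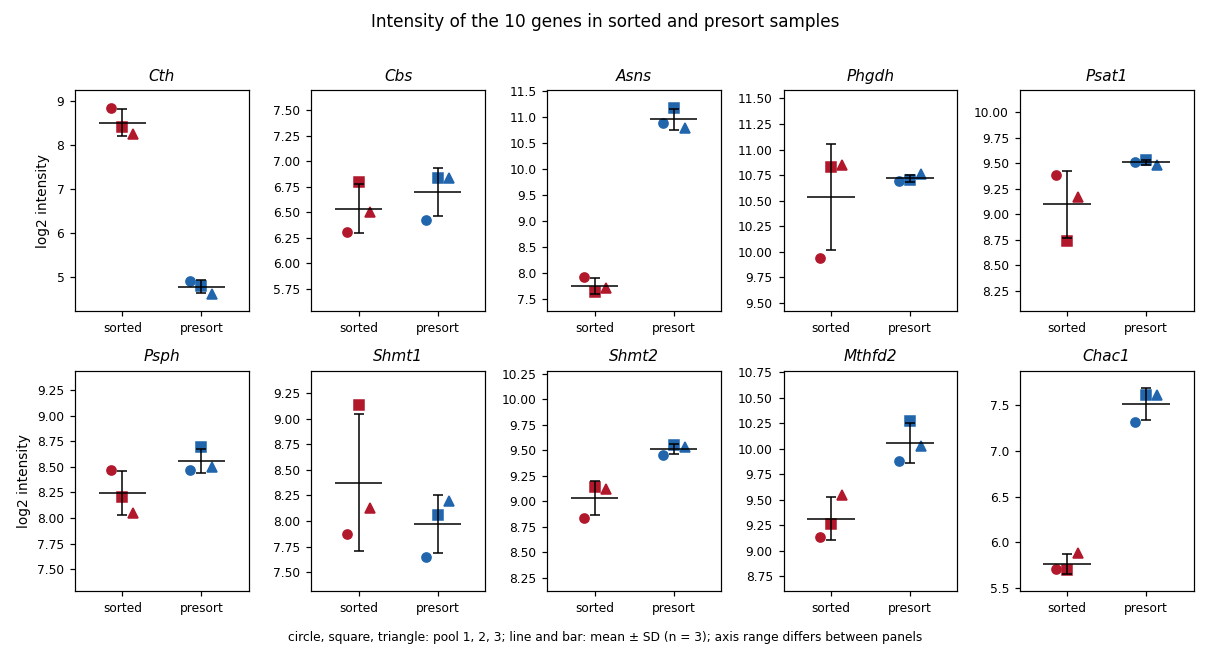
Log2 intensity of the 10 genes (vertical axes, one panel a gene) in sorted samples (red, left) and presort samples (blue, right), with the mean and SD of 3 samples. Cth lies between 8.26 and 8.85 in sorted samples and between 4.62 and 4.91 in presort samples, whereas Asns and Chac1 lie lower in every sorted sample than in any presort sample.

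Of the 2 steps of transsulfuration, the second was far higher in sorted samples and the first did not pass the test. Cth encodes the second enzyme, cystathionine gamma-lyase, which releases cysteine and can also form hydrogen sulfide. Its log2 intensity was 8.85, 8.41 and 8.26 in sorted replicates 1, 2 and 3, against 4.91, 4.78 and 4.62 in presort replicates 1, 2 and 3. The groups did not overlap, and the spread within each was small beside the gap. Cth averaged 8.50 ± 0.31 in sorted and 4.77 ± 0.15 in presort samples (SD, n = 3 each), a difference of 3.73 ± 0.17 (SE, log2) or 13.3-fold. Pools 1, 2 and 3 gave differences of 3.93, 3.62 and 3.64. Cth ranked 13th from the top among all genes, and it was read by 1 probe set, so no other probe set of the gene bears on the value. The files hold no detection calls, and the lowest log2 value of the whole table was 3.28. A dim presort signal of this kind holds background besides Cth RNA, so the fold may be understated.

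Cbs encodes the enzyme of the step before it. Its log2 intensity was 6.31, 6.79 and 6.51 in sorted replicates 1, 2 and 3, and 6.43, 6.83 and 6.84 in presort replicates 1, 2 and 3. The groups overlapped. The difference of -0.16 did not pass the test (95% interval -0.56 to 0.23, limma adjusted p = 0.56), and the second probe set of Cbs gave -0.13 ± 0.15 (SE). This interval does not reach the size of the Cth difference. Cth had stood out in earlier results of these arrays, and the genes were not tested against each other.

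By the root mean square distance between log2 profiles over the 6 arrays, each centred on its own mean, the genes nearest to Cth were Col5a3 (distance 0.22), Bmf (0.23), Zbtb10 (0.29) and Plk2 (0.30). Col5a3 encodes a collagen chain and Bmf a death-promoting member of the BCL2 family. Their differences were 3.90 and 3.43, that of Zbtb10 was 3.82 and that of Plk2, a polo-like kinase, 3.82. With this measure a gene is near to Cth mainly through the size of its difference between the groups.

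Asns, which makes asparagine from aspartate with the amide nitrogen of glutamine, was lower in every sorted sample. Its log2 intensity was 7.94, 7.64 and 7.72 in sorted replicates 1, 2 and 3, against 10.89, 11.17 and 10.79 in presort replicates 1, 2 and 3. No sorted sample came near the presort range. The difference was -3.18 ± 0.14 (SE, log2; 9.09-fold lower; limma adjusted p = 1.47e-05). Pools 1, 2 and 3 gave -2.95, -3.53 and -3.07. The second probe set gave -3.10 ± 0.24 (limma adjusted p = 0.000102 over all probe sets, of which 15.3% were lower). Both probe sets thus gave nearly the same size. The genes nearest to Asns by profile were Ces2g, a carboxylesterase gene, Nfix, a transcription factor gene, Far2, a fatty acyl reductase gene, and Plpp1, a lipid phosphatase gene, at distances of 0.13 to 0.14.

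Chac1 encodes a cytosolic enzyme that cleaves glutathione, and its transcription is induced in stressed cells. Its log2 intensity was 5.70, 5.69 and 5.89 in sorted replicates 1, 2 and 3, against 7.32, 7.62 and 7.62 in presort replicates 1, 2 and 3. The groups were well apart. The difference was -1.76 ± 0.13 (SE, log2; 3.38-fold lower; limma adjusted p = 3.87e-05), with -1.61, -1.92 and -1.73 in pools 1, 2 and 3. Chac1 had 1 probe set.

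The upstream sequences of Asns and Chac1 are shown because, of the genes searched, these alone held TGATGNAA, a motif described below. Asns and Chac1 were also the members with the largest falls, and both genes are textbook targets of the ATF4 response. The 250 bases before the annotated start were read from RefSeq (GRCm38.p6) for the 9 of 10 genes with an entry there. Cth had none and was not searched. The windows were searched on both strands for TGATGNAA, the core of the element that binds ATF4 with a C/EBP partner, and for the near variant TGACGNAA, which differs from it at a fixed base so that no match can be both at one place and strand. The letters searched were chosen after the expression values were seen. The Asns window lies at chr6:7693210-7693459 on the minus strand and the Chac1 window at chr2:119350992-119351241 on the plus strand, each printed 5' to 3' along the gene with TGATGNAA or its reverse complement in capitals.
Asns: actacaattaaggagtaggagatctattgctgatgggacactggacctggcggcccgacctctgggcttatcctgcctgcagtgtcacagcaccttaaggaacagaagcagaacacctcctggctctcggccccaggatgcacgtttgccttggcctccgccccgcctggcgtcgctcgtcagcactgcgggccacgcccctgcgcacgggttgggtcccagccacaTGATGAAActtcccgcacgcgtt
Chac1: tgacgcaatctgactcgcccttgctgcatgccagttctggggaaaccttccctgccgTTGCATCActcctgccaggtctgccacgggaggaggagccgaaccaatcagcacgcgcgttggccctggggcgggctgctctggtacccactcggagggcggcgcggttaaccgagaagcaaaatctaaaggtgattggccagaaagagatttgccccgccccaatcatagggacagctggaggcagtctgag

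The match in Asns ran from 23 to 16 bases before the start, in the direction of the gene. That in Chac1 ran from 193 to 186 bases before the start, in the opposite direction. TGATGNAA was found in 3.45% of 32851 windows of this length over all genes, and among the windows of the 9 genes searched in those of Asns and Chac1 alone. TGACGNAA was found in 1.39% of all windows and, among these genes, in Chac1 from 250 to 243 and in Shmt1 from 131 to 124 bases before the start. A match describes these letters and is not a measured binding site, and no match says only that the letters are not in this window.

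The 3 enzymes of serine synthesis did not pass the test. Phgdh, the first and committed step, had log2 intensities of 9.94, 10.83 and 10.85 in sorted replicates 1, 2 and 3, against 10.69, 10.70 and 10.76 in presort replicates 1, 2 and 3. Sorted replicate 1, the array with the largest 3' to 5' difference, lay below the other 5 arrays, which differed little from each other. The difference was -0.18 (95% interval -0.73 to 0.37, limma adjusted p = 0.657), and without sorted replicate 1 it was 0.12. The other 3 probe sets of Phgdh gave -0.26, 0.38 and 0.43, none of them called. All 4 have names ending in _x_at, which marks probes that can match other transcripts.

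Psat1, the aminotransferase of the second step, had log2 intensities of 9.39, 8.74 and 9.17 in sorted replicates 1, 2 and 3, against 9.51, 9.53 and 9.48 in presort replicates 1, 2 and 3. All sorted values lay below all presort values, but the difference was not called (-0.41 ± 0.17, SE; limma adjusted p = 0.107). Its second probe set pointed the other way at 0.33 ± 0.20, also not called. Psph, the phosphatase of the last step, had values of 8.47, 8.21 and 8.05 in sorted replicates 1, 2 and 3 and of 8.47, 8.70 and 8.50 in presort replicates 1, 2 and 3. The groups met in pool 1, and the difference of -0.31 ± 0.14 (SE) was not called (limma adjusted p = 0.14). Without sorted replicate 1 both Psat1 (-0.56, limma adjusted p = 0.0257) and Psph (-0.43, 0.038) were called lower. Both were also called lower with the beta-actin 3' excess in the model (Psat1 -0.67, limma adjusted p = 0.036; Psph -0.53, 0.043) and with array weights (0.0396 and 0.0406), and Psph without pool 1 (-0.47, 0.0454). Pool 1 includes sorted replicate 1, and the 3' excess was largest in that array and separated the groups, so these settings are not independent checks.

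The enzymes that pass the carbon of serine to folate were lower or read differently by different probe sets. Mthfd2, the mitochondrial enzyme that oxidises the loaded folate, had log2 intensities of 9.13, 9.26 and 9.55 in sorted replicates 1, 2 and 3, against 9.88, 10.27 and 10.03 in presort replicates 1, 2 and 3. The groups did not overlap. The difference was -0.74 ± 0.15 (SE; 1.67-fold lower; limma adjusted p = 0.00674), and the second probe set gave -1.11 ± 0.34 (0.0426 over all probe sets). The fall was no longer called without pool 2 (-0.61, limma adjusted p = 0.0747), nor when the beta-actin 3' excess was added to the model (-0.55, adjusted p = 0.0714).

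Shmt2, the mitochondrial serine hydroxymethyltransferase, had log2 intensities of 8.84, 9.14 and 9.13 in sorted replicates 1, 2 and 3, against 9.45, 9.55 and 9.53 in presort replicates 1, 2 and 3. The groups were close but apart. The difference was -0.48 ± 0.12 (SE; limma adjusted p = 0.0175). Its 4 probe sets disagreed in size: the second, with a name that marks no cross-matching, gave -1.12 ± 0.21 (limma adjusted p = 0.00553 over all probe sets), and the other 2 gave -0.12 and -0.16, not called. The call was lost without pool 2, pool 3, presort replicate 2 or presort replicate 3 (limma adjusted p from 0.0683 to 0.106), with the beta-actin 3' excess in the model (-0.29, 0.157), with median centring (-0.25, 0.105) and with quantile normalization over genes (-0.33, 0.0546).

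Shmt1, the cytosolic form, had no settled direction. Its brightest probe set read 7.87, 9.13 and 8.12 in sorted replicates 1, 2 and 3 and 7.65, 8.05 and 8.20 in presort replicates 1, 2 and 3. Sorted replicate 2 stood above the others, and the difference of 0.41 ± 0.32 (SE) was not called (limma adjusted p = 0.41). The other 3 probe sets were lower in every sorted sample than in any presort sample. The brightest of these read 6.85, 6.37 and 6.49 in sorted replicates 1, 2 and 3, against 7.94, 8.10 and 8.07 in presort replicates 1, 2 and 3, a difference of -1.47 ± 0.15 (SE; limma adjusted p = 0.000298 over all probe sets). The remaining 2 gave -0.88 (limma adjusted p = 0.011) and -0.66 (0.0117). Of the 4, 3 share 1 source sequence in the annotation, the brightest among them. The average of all 4 was lower at -0.65 (limma adjusted p = 0.00949 over genes).

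**Figure D2:**
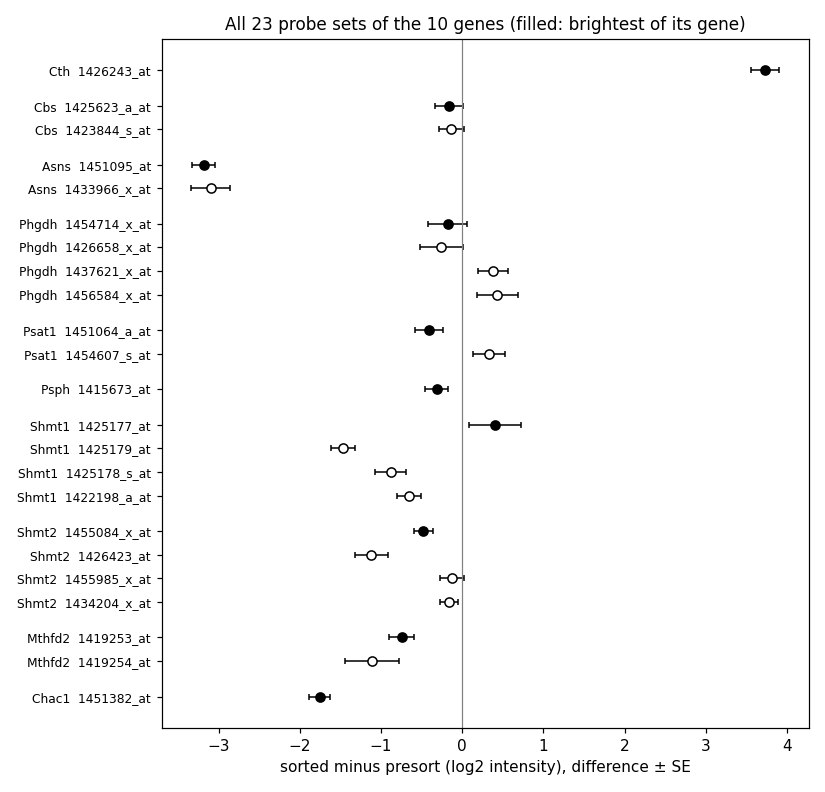
Sorted minus presort difference (log2, horizontal axis) with its SE for the 23 probe sets of the 10 genes, the brightest of each gene filled. The probe sets of Asns agree in size at -3.18 and -3.10, while those of Shmt1 run between 0.41 and -1.47.

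Marker genes of several cell types differed between the same samples. Of the B lineage markers 9 of 9 measured were higher, with a summed intensity of 69820 to 74633 in sorted samples and 9771 to 19613 in presort samples. Of the markers of dividing cells 11 of 11 were lower, with sums of 10929 to 17891 in sorted and 62649 to 63245 in presort samples. Erythroid markers were lower in 7 of 7 cases (sums of 13297 to 19498 in sorted and 43488 to 46452 in presort samples). Neutrophil markers were lower in 8 of 8, at 50445 to 85903 in sorted and 162520 to 170842 in presort samples, and monocyte and macrophage markers in 8 of 9, at 5453 to 8472 in sorted and 18736 to 24989 in presort samples. The exception in that list was Ly86, not called at 0.35. Among the T and NK cell markers 2 of 9 were lower (22.2%, beside 18.1% of all genes) and 7 were not called, with sums of 821 to 1363 in sorted and 3863 to 4192 in presort samples. Most of that gap lay in Nkg7, a cytotoxic granule gene (-2.99, log2). The other gene called was Ncr1 (-0.67), an NK cell receptor gene, and the list median was -0.60. No marker is listed at 0, since the lowest intensity in the table is 9.71. The part of these cell types in the values of the 10 genes was not tested.

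The neighbouring pathways were described by 9 lists, also written with earlier results known, of which 112 of 125 genes were measured. Of these 112 genes 12 were higher and 43 lower, and the 55 called compare with 32.6% of all genes. After median centring 24 were higher and 31 lower. In the methionine cycle, which supplies homocysteine to transsulfuration, 3 of 10 measured genes fell and none rose (median -0.05), a called share of 30.0% that was near the background. Ahcy, which releases homocysteine, fell by 1.23 ± 0.19 (SE, log2; limma adjusted p = 0.00143), and Mtr, which turns homocysteine back to methionine, by 0.65 ± 0.10. Ahcyl2, a relative of Ahcy, stood at -0.60 (limma adjusted p = 0.0345). The call of Ahcyl2 was lost without sorted replicate 1, sorted replicate 3, presort replicate 2, presort replicate 3, pool 2 or pool 3, with median centring, quantile normalization over genes or the beta-actin 3' excess in the model, and with its probe sets averaged (-0.14), at limma adjusted p from 0.0573 to 0.575. With median centring 2 genes of this list were called in each direction.

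Of the genes that use cysteine or sulfide 5 of 11 fell, 1 rose and 5 were not called (median -0.55). The called share was 54.5%, beside 32.6% of all genes. Median centring gave 4 lower and 2 higher. Sqor, the mitochondrial enzyme that oxidises hydrogen sulfide, read 7.84, 8.59 and 7.94 in sorted replicates 1, 2 and 3, against 11.44, 11.18 and 11.32 in presort replicates 1, 2 and 3. The difference of -3.19 ± 0.20 (SE; limma adjusted p = 2.59e-05) was close in size to that of Asns, though averaging its probe sets gave -1.51. Ethe1 and Suox, which act later in sulfur oxidation, fell by 1.69 and 1.58. The riser, named after its values were seen, was Cdo1, which oxidises cysteine to its sulfinate, at 0.66.

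Of the glutathione list 3 of 10 measured genes rose and 6 fell (median -0.48), a called share of 90.0% beside 32.6% of all genes. Gclm, the modifier subunit of the ligase that begins glutathione synthesis, read 9.15, 9.89 and 10.21 in sorted replicates 1, 2 and 3, against 11.96, 11.94 and 12.01 in presort replicates 1, 2 and 3, a difference of -2.22 ± 0.25 (SE; limma adjusted p = 0.000282). The catalytic subunit gene Gclc, chosen after its value was seen, stood at 0.42 and was called higher, so the subunits of this ligase were called in opposite directions. Chac2, the relative of Chac1, fell by 2.12 ± 0.39 (SE; 0.00362), or by 1.20 with the beta-actin 3' excess in the model. Lap3, a peptidase that acts on products of glutathione breakdown, fell by 1.57. In this list 4 to 7 genes were called when an array or a pool was left out, and none was higher without sorted replicate 3, presort replicate 3 or pool 3, the call of Gclc being lost there.

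The folate enzymes outside the 10 genes were lower in 7 of 15 cases and higher in 1 (median -0.36). Their called share was 53.3%, beside 32.6% of all genes. Ggh, which trims the glutamate tail of folates, fell by 2.89 ± 0.26 (SE; limma adjusted p = 0.000103). Tyms, which makes thymidylate and also stands among the markers of dividing cells, fell by 1.93, or by 0.67 averaged over its probe sets. Mthfd1, the cytosolic enzyme with several folate activities, read 9.36, 9.54 and 9.14 in sorted replicates 1, 2 and 3, against 11.04, 11.43 and 11.26 in presort replicates 1, 2 and 3, and fell by 1.90 ± 0.15. The fall of this cytosolic enzyme exceeded that of mitochondrial Mthfd2 in each pool of samples, by differences not tested here. Of genes for glycine cleavage and serine use 3 of 11 were called, all lower (median -0.24), and this 27.3% lay below the 32.6% of all genes called in either direction. The called genes were the glycine transporter gene Slc6a9 (-2.48 ± 0.26, SE), the mitochondrial serine carrier gene Sfxn1 (-0.65) and Gcsh (-0.62), which encodes a protein of the glycine cleavage system. The call of Sfxn1 was lost without pool 3 (limma adjusted p = 0.0723).

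Enzymes of aspartate, asparagine and glutamine other than Asns were mostly not called: 2 of 9 fell (22.2%, below the background) and none rose (median 0.02), against 2 higher and 1 lower with median centring. Got2, the mitochondrial aspartate aminotransferase, fell by 0.86 ± 0.11 (SE; -0.33 averaged over its probe sets). Nars, which charges tRNA with asparagine, stood at -0.46 (limma adjusted p = 0.017). The call of Nars was lost without presort replicate 2, presort replicate 3, pool 1 or pool 2, with the beta-actin 3' excess in the model and with median centring (limma adjusted p from 0.0537 to 0.153).

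**Figure D3:**
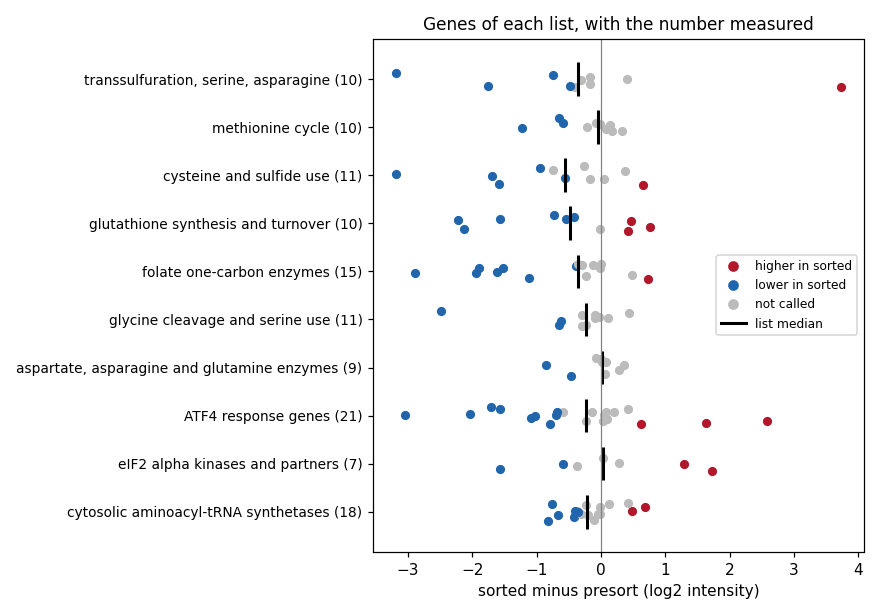
Sorted minus presort difference (log2, horizontal axis) of each measured gene in the set of 10 and in the 9 neighbouring lists, coloured by the test, with the list median as a bar. The set of 10 spans -3.18 (Asns) to 3.73 (Cth). Its upper end rests on Cth alone, which had stood out in earlier results, and the next highest member is Shmt1 at 0.41.

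Genes of the ATF4 response did not move one way. Of 21 measured genes other than the 10, 3 rose and 9 fell (median -0.23), a called share of 57.1% beside 32.6% of all genes. Atf4 itself read 12.38, 12.62 and 12.66 in sorted replicates 1, 2 and 3, against 11.96, 11.98 and 11.85 in presort replicates 1, 2 and 3. Its RNA was higher in each sorted sample, by 0.62 ± 0.12 (SE; limma adjusted p = 0.00461), while Asns and Chac1 were lower. The Atf4 call was lost without pool 2 (limma adjusted p = 0.0501) or pool 3 (0.0829). Atf3, a stress-induced repressor, rose by 2.58 ± 0.28. Jdp2, an AP-1 repressor, fell by 3.05 ± 0.28 (-1.68 averaged over its probe sets). Slc7a5, which carries large neutral amino acids into cells, fell by 2.04 ± 0.32 (SE). Since ATF4 is controlled mainly at translation, its RNA level does not measure its activity.

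The kinases that act upstream of ATF4 by phosphorylating eIF2 alpha moved in both directions. In this list 2 of 7 genes were higher and 2 lower (median 0.03), a called share of 57.1% beside 32.6% of all genes. Eif2ak3, the endoplasmic reticulum stress kinase PERK, rose by 1.72 ± 0.21 (SE; limma adjusted p = 0.00048). Eif2ak4, the amino acid sensor GCN2, read 9.25, 9.19 and 8.99 in sorted replicates 1, 2 and 3, against 7.56, 7.94 and 8.04 in presort replicates 1, 2 and 3, a rise of 1.30 ± 0.15 (0.000385). Eif2ak1, the heme-regulated kinase known from red cell precursors, fell by 1.57 ± 0.24 (0.00145), or by 0.82 averaged over its probe sets, beside the erythroid markers that were lower in the same samples.

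Of 18 cytosolic aminoacyl-tRNA synthetases 2 rose and 6 fell (median -0.22), but with median centring 4 were higher and 1 lower. As deposited the called share was 44.4%, beside 32.6% of all genes. Aars fell by 0.83 ± 0.11 (SE; limma adjusted p = 0.000667). Hars stood at -0.75 ± 0.22 (0.0347) and Vars at 0.68 ± 0.22 (0.0469). Without pool 3 the calls in this list numbered 1, and those of Hars and Vars were lost (limma adjusted p of 0.246 and 0.257), as both were without sorted replicate 1, sorted replicate 3, presort replicate 2 or presort replicate 3 and with the beta-actin 3' excess in the model.

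**Figure D4:**
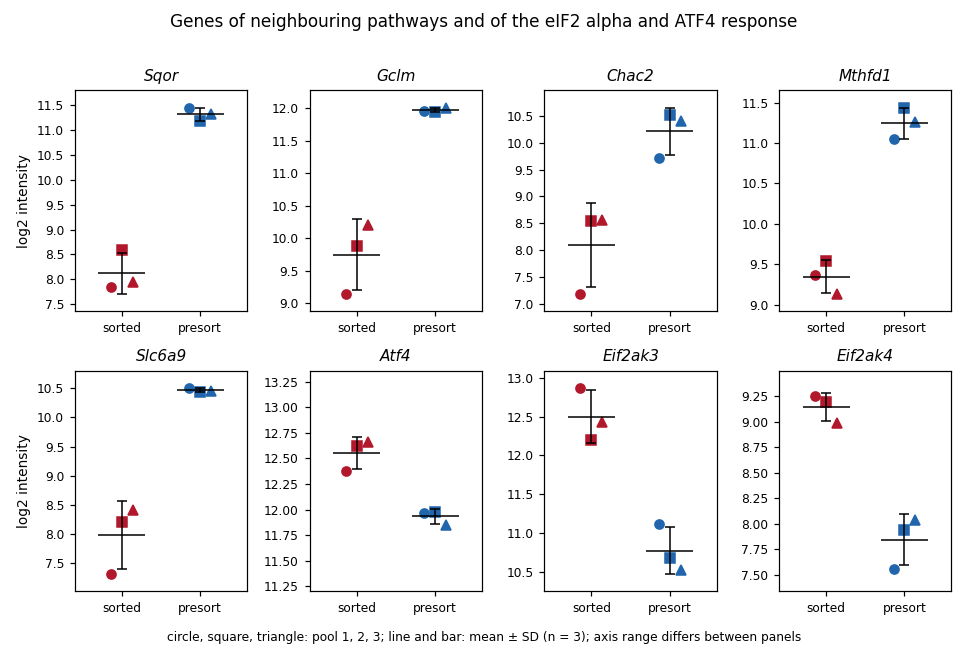
Log2 intensity (vertical axes, one panel a gene) of Sqor, Gclm, Chac2, Mthfd1, Slc6a9, Atf4, Eif2ak3 and Eif2ak4 in sorted samples (red, left) and presort samples (blue, right), with the mean and SD of 3 samples. The first 5 genes are lower and Atf4, Eif2ak3 and Eif2ak4 higher in every sorted sample than in any presort sample.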

How the data were processed

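Per the submitters' processing notes, RMA gave the deposited intensities, which the values show to be linear; its version is not given in the sources used here. All 6 arrays share 1 distribution (9.71 to 38492.08), as quantile normalization leaves it, so a change in total RNA per cell leaves no trace. Log2 was taken with no pseudocount. Of 45101 probe sets, 34945 carried 1 gene symbol in the platform's annotation, 932 several and 9160 none. The brightest probe set stood for each gene, with no filter. Symbols of 16 tRNA synthetase genes were matched under older names.

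The sorted minus presort contrast was fitted on log2 of the deposited values by limma (3.58.1, R 4.3.3), with p-values adjusted over 18193 genes, and probe sets over all 34945. The main fit held no term for the pool, so its SEs, intervals and p-values are unpaired. The members and lists were chosen with earlier results of these data known. Text names, besides the 10 genes, Atf4 and up to 3 called genes per list with the largest differences, the 4 genes nearest in profile to Cth and to Asns, and markers whose call differed from most of their list; Cdo1 and Gclc were named outside this rule, after their values were seen. Sorted and presort samples of 1 number come from 1 pool, so numbers pair them. Their deviations from group means correlated at 0.39, 0.20 and -0.03 in replicates 1, 2 and 3. Sorted replicate 2 with presort replicate 3 gave 0.248, and sorted replicate 3 with presort replicate 2 gave 0.175, both above their same-number values. Pairs of unlike number that held a replicate 1 gave -0.347 to -0.113. Simulated data of the sorted against presort comparison held 18193 genes, 200 of them changed. Of log2 changes of 1, 58% were recovered, and of those of 2, 95%, with 2 false calls. Far fewer genes changed there than the 5925 called in the data, so these shares are not recovery rates for the comparison itself. Figures were drawn with matplotlib 3.10.9. The renin gene was not analysed here.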

Additional observations from a re-analysis of the deposited data

How the results depend on the processing

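The pool number as a block changed no call among the 10 genes, with 1 higher and 4 lower, 2860 genes higher and 3548 lower over all genes, and 59 called genes in the 9 lists. Asns and Chac1 stayed called under each alternative of the gene fit, and Cth stood at 3.38 to 3.96. With an array or pool left out, 1 of the 10 genes was higher in every case and 2 to 6 lower, the 2 without pool 2. The 1 higher was Cth, which had stood out in earlier results of these arrays. The range of the median of the 10 genes was -0.44 to -0.28, that of all genes higher 1544 to 2608 (1544 without pool 3) and lower 2362 to 3256, and that of called list genes 35 to 52 (35 without pool 3). With 1 array left out, the sorted minus presort gap in mean 3' excess ranged from 0.53 to 1.40 for beta-actin. For Gapdh this gap ranged from 0.50 to 1.36. The median of the 10 genes was -0.13 with median centring, where 5162 genes were higher, -0.19 with quantile normalization over genes, -0.41 without _x_at and _s_at probe sets, -0.41 with array weights and -0.41 with the beta-actin covariate. Signs turned for Cbs, at 0.0648 with median centring, 0.0204 with quantile normalization and 0.0782 with the covariate. Phgdh ranged from -0.3312 to 0.12 with an array or pool left out (0.11 without pool 1), and stood at 0.0501 with median centring, 0.0964 with the mean of probe sets, 0.39 with the covariate and 0.38 and 0.43 at its dimmest 2 probe sets. The second probe set of Psat1 gave 0.33, and for Shmt1 the mean gave -0.65 and single probe sets -1.47, -0.88 and -0.66. Causes were not tested. With 3 arrays a group and no detection calls, small differences and those of dim genes are the least certain. The probe set comparison was chosen after seeing the data.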
